A study of Drosophila melanogaster with 6 samples.

Results

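Wing imaginal discs in which lid was knocked down (LID RNAi) were compared with discs that carried a control hairpin (GFP RNAi), on 2 arrays per group, and all 18769 probe sets that are not controls of the manufacturer were described. These 4 arrays were chosen by their titles out of 6 in the series, and the other 2, titled wild type, show the level without a hairpin. The GFP RNAi larvae were w1118 with the driver act5C-Gal4 and a hairpin against GFP, while the LID RNAi larvae combined the allele lidk06801 with the same driver and a hairpin against lid. The wild type arrays have no RNAi in the RNAi field, although the background field writes w1118 and act5Cgal4>RNAi for them as well. All larvae were at the third instar, wall-climbing and grown at 25 °C, and each sample pooled 30 wing discs. Hairpin and mutant allele come together in LID RNAi, and the hairpin strains may differ from each other and from wild type elsewhere in the genome, so these differences cannot be told apart. Because act5C drives Gal4 in nearly all cells and whole discs were taken, fewer cells of a type and less RNA per cell cannot be told apart either.

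The gene lid, called Kdm5 in current gene tables, encodes a demethylase that removes methyl groups from lysine 4 of histone H3, a mark found at the starts of active genes. The enzyme works in large complexes with histone deacetylases and can act on transcription with or without its catalytic activity. The wing disc is a folded epithelial sac that forms the adult wing and the back of the thorax. Muscle precursors, tracheal branches and attached blood cells come with it when it is dissected.

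The labelled tissue was checked first. All 16 measured genes of wing disc identity lay above the background point, a log2 level of 4.82 taken from 27 bacterial control probe sets. The wing selector vg read between 12.81 and 13.05 on all 6 arrays. The pouch gene nub read 12.11 and 12.15 with the GFP hairpin, 11.88 and 12.03 with the lid hairpin and 11.94 and 11.94 in wild type. No gene of this list passed the test (0 of 16 in limma, 0 of 16 at an unadjusted p under 0.05), and the median difference was -0.08, beside 0.00 over all measured genes.

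The arrays differed in how well replicates matched. The median gap between replicates was 0.15 in log2 for the LID RNAi arrays, against 0.12 in GFP RNAi and 0.11 in wild type. Across probe sets, LID RNAi replicate 1 correlated more closely with GFP RNAi replicate 1 (r = 0.993) than with its own replicate (r = 0.990), a description with no test. Replicates lay more than 2 apart in log2 for 153 probe sets with the lid hairpin, for 49 with the GFP hairpin and for 46 in wild type. LID RNAi replicate 2 had the widest gap between the 3′ and 5′ control probe sets, at 1.20 for GAPDH and 0.64 for actin, where the other 5 arrays ran from 0.88 to 1.06 and from 0.38 to 0.57. The part of these gaps in the differences reported here was not tested.

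The targeted transcript was lower in the knockdown discs. Kdm5 read 10.32 and 10.45 under the control hairpin, 8.36 and 8.04 under the lid hairpin and 10.42 and 10.33 in wild type. Both LID RNAi arrays thus lay below all 4 others, and GFP RNAi and wild type arrays overlapped. The fall of 2.19 ± 0.13 (SE) in log2 is 4.55-fold (limma adjusted p = 0.0309). The 5 measured genes on either side of Kdm5 along chromosome 2L did not pass the test, the largest differences being 0.79 ± 0.27 for CG9098 (adjusted p = 0.348) and -0.73 ± 0.09 for Ucp4B (adjusted p = 0.0697).

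In total 88 of 18769 probe sets passed an adjusted p of 0.05, which is 0.469%. Of these 31 rose (0.165%) and 57 fell (0.304%) in LID RNAi. With a gene counted when any of its probe sets passed, 25 of 11982 measured genes rose (0.209%) and 46 fell (0.384%). A further 13 probe sets had no gene name and 3 had several. The median size of a called difference was 1.48 in log2, the smallest was 0.73, and 67 of the 88 exceeded 1. Over all probe sets 372 differed by more than 1 (1.98%), 164 of them upward and 208 downward, so most differences of that size did not pass. LID RNAi and GFP RNAi arrays did not overlap for any of the 88, which 7851 of all probe sets share (41.8%). For all 88 each LID RNAi array alone lay at least 50% of the way along the difference, and replicate 2 lay farther out for 49. The former follows largely from the test, which picks differences that are large beside the gaps between replicates. The calls rested on all arrays: limma called 0 without LID RNAi replicate 2 (2197 probe sets at an unadjusted p under 0.05), 0 without GFP RNAi replicate 1 (1773) and 0 without GFP RNAi replicate 2 (1644). It called 6 without LID RNAi replicate 1, 3 without wild type replicate 1 and 3 without wild type replicate 2.

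**Figure D1:**
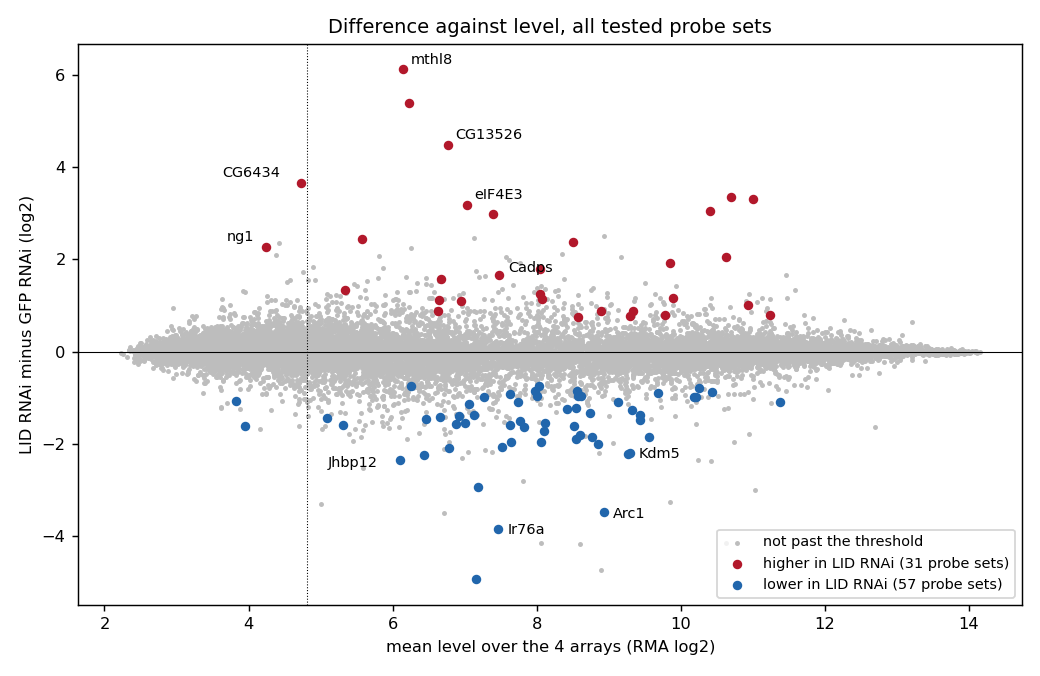
Difference between LID RNAi and GFP RNAi (log2, vertical) against the mean level over these 4 arrays (RMA log2, horizontal) for 18769 probe sets. The 31 called rises are red and the 57 called falls blue, and the dotted line marks the background point of 4.82, near or below which CG6434 and ng1 lie; many grey points are as far from 0 as the called ones.

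Among the called genes, del and cuff fell. Their products work together, with Rhino, in transcription of piRNA clusters in the germline. Levels of cuff were 8.94 and 8.98 under the GFP hairpin, 7.19 and 7.29 under the lid hairpin and 8.63 and 8.68 in wild type. Those of del were 9.84 and 9.54, 7.72 and 7.98, and 9.67 and 9.66. For both genes the wild type arrays lay near the control hairpin and well away from the knockdown. The falls were 1.72 ± 0.07 for cuff and 1.84 ± 0.14 for del (SE, adjusted p = 0.00878 and 0.0338).

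Mov10, which encodes an RNA helicase, fell too, but with another place for wild type. It read 8.98 and 9.08 with the GFP hairpin, 7.71 and 7.89 with the lid hairpin and 7.88 and 7.89 in wild type, which left the control arrays as the pair apart (difference -1.23 ± 0.09, adjusted p = 0.0338). The kinase gene png, which acts on translation in the egg, fell by 0.74 ± 0.07 from 6.63 and 6.61 to 5.91 and 5.86, with wild type at 6.58 and 6.50. In the opposite direction, eIF4E3, which encodes a cap-binding protein of the testis, rose by 3.19 ± 0.30 (adjusted p = 0.0440). Its LID RNAi arrays read 8.84 and 8.41, while GFP RNAi read 5.81 and 5.07 and wild type 5.29 and 5.0.

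The gene mod(mdg4), whose many trans-spliced forms encode BTB proteins of chromatin insulators, changed in 1 of 22 probe sets. That probe set, 1633152_at, read 8.62 and 8.63 under the GFP hairpin, 6.87 and 6.46 under the lid hairpin and 9.25 and 9.50 in wild type (difference -1.96 ± 0.17, adjusted p = 0.0367). The brightest one, 1640268_at, read 12.12 and 12.13, 12.12 and 12.11, and 12.11 and 12.15. Among the 21 others the differences ran from -0.43 to 0.39, none with an adjusted p under 0.217, and 18 lay within 0.25 of 0. The table does not say which transcript form each probe set measures, and forms from both strands of this locus could be read together.

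**Figure D2:**
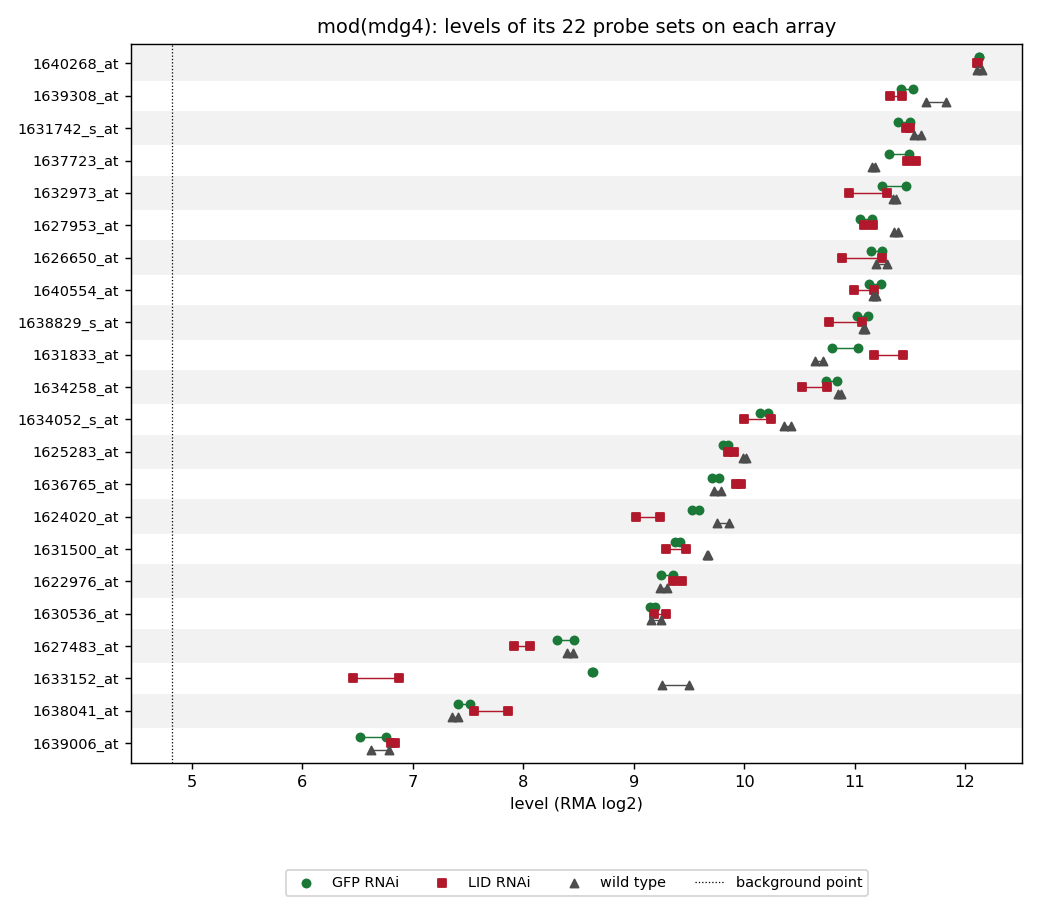
Levels (RMA log2, horizontal) of the 22 probe sets of mod(mdg4), 1 per row in order of mean level, with 2 points per group joined by a line (green circles GFP RNAi, red squares LID RNAi, grey triangles wild type; dotted line, background point). In the row of 1633152_at the LID RNAi arrays, at 6.87 and 6.46, lie far to the left of the other groups, and in the rest the groups lie close together.

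The largest rise belonged to mthl8, a receptor of the methuselah-like family, which had 2 probe sets and passed with both. They read 3.13 and 3.05 and then 3.42 and 3.66 in GFP RNAi, within background, against 9.57 and 8.85 and then 9.01 and 8.85 in LID RNAi. Wild type stood at 8.66 and 9.18 and at 8.24 and 8.58, which left the control arrays as the pair apart. With the GFP RNAi level at background the difference is at least 21.0-fold and at least 17.3-fold (adjusted p = 0.0138 and 0.00349). Its relative mthl6 rose by 1.10 ± 0.08, from 6.42 and 6.39 to 7.52 and 7.48, and wild type was lower than both at 4.72 and 4.58.

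Ir76a, an ionotropic receptor known from olfactory neurons, showed the largest fall of a named gene. It read 9.48 and 9.28 with the GFP hairpin, 5.58 and 5.52 with the lid hairpin and 5.66 and 5.62 in wild type. Here again GFP RNAi was the group apart, by 3.84 ± 0.09 from LID RNAi (adjusted p = 0.00287) and by 3.74 from wild type (adjusted p = 0.00215). The channel gene wtrw, a TRP channel for moist air, fell by 1.45 ± 0.13 from 7.25 and 7.14 to 5.59 and 5.90, with wild type at 7.22 and 7.20.

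Among transporters, ine, of the sodium-dependent neurotransmitter family, fell by 2.24 ± 0.16. Its levels were 7.57 and 7.53 under the GFP hairpin, 5.54 and 5.09 under the lid hairpin and 5.67 and 5.69 in wild type. The GABA transporter gene Gat rose to 5.99 and 6.01 from 4.65 and 4.68, which lie within background, as do the wild type arrays at 4.53 and 4.32. That rise is at least 2.27-fold (adjusted p = 0.0338). Cadps, which primes dense-core vesicles for release, rose by 1.66 ± 0.14, from 6.82 and 6.49 to 8.30 and 8.33, and wild type lay with the control hairpin at 6.62 and 6.79. Its second probe set differed by 2.05 ± 0.24 with no overlap of the arrays (adjusted p = 0.0679). The septin gene Septin5 rose by 1.01 ± 0.08, and its LID RNAi arrays at 11.44 and 11.45 lay above GFP RNAi (10.41 and 10.46) and wild type (10.56 and 10.41).

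Arc1 and Arc2, neighbours on chromosome 2R, encode proteins that derive from retrotransposon Gag and form capsids, and both fell. The called probe set of Arc1 read 10.40 and 10.95 with the GFP hairpin, 7.49 and 6.91 with the lid hairpin and 7.61 and 7.05 in wild type. Arc2 read 10.25 and 10.50, 8.37 and 7.97, and 9.17 and 9.35. For Arc1 wild type overlapped LID RNAi, whereas for Arc2 it lay midway. The falls were 3.48 ± 0.32 and 2.21 ± 0.18 (adjusted p = 0.0436 and 0.0338). A second, brighter probe set of Arc1 stood at 13.42 and 13.61 in GFP RNAi and at 12.30 and 11.47 in LID RNAi, a difference of -1.63 that did not pass (adjusted p = 0.149).

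The serpin genes Spn42De and Spn47C, members of a family of protease inhibitors, moved oppositely. Spn42De read 10.34 and 10.62 under the GFP hairpin, 8.49 and 8.77 under the lid hairpin and 10.19 and 10.27 in wild type. Spn47C read 9.03 and 8.73, 10.89 and 10.73, and 7.82 and 7.38. LID RNAi was the lowest group for Spn42De and the highest for Spn47C, where wild type was the lowest (differences -1.85 ± 0.15 and 1.92 ± 0.19, adjusted p = 0.0338 and 0.0490).

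The gene grass, whose product is a clip-domain protease of the Toll cascade, fell by 1.08 ± 0.08, from 8.32 and 8.25 to 7.26 and 7.14. Wild type was higher than both, at 9.24 and 9.30, and above GFP RNAi by 0.99 (adjusted p = 0.0231). GNBP2, of the family that recognises microbial cell walls, fell by 1.32 ± 0.12, with 9.25 and 9.55 with the GFP hairpin, 8.07 and 8.08 with the lid hairpin and 9.65 and 9.51 in wild type. The protease homologue gene scaf, known as a JNK target, fell by 1.08 ± 0.08 from a high level, 11.88 and 11.96 to 10.78 and 10.90, and wild type stood at 11.53 and 11.55. S1P, the site-1 protease that processes SREBP, fell by 0.95 ± 0.07, with wild type midway at 8.56 and 8.58. The lysozyme gene LysX also passed, but at 4.72 and 4.79 against 3.32 and 2.97 its levels in both groups were within background. SPE, which encodes a protease later in the Toll cascade, read 8.42 and 8.24 under the GFP hairpin and 7.10 and 6.69 under the lid hairpin without passing (adjusted p = 0.0932).

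The cytochrome P450 genes Cyp6a13 and Cyp6d2 both fell, by 2.08 ± 0.21 and 1.89 ± 0.16 (adjusted p = 0.0496 and 0.0367). The former read 7.87 and 7.79 with the GFP hairpin, 5.78 and 5.71 with the lid hairpin and 6.82 and 6.21 in wild type, and the latter 9.28 and 9.71, 7.65 and 7.57, and 7.91 and 7.74. For both genes GFP RNAi was the highest group and wild type lay nearer the knockdown. AOX1, an aldehyde oxidase, fell by 1.41 ± 0.14 to 6.13 and 5.78, and wild type was as low at 5.69 and 5.63. The sulfotransferase gene St3 fell by 1.56 ± 0.16, from 7.66 and 7.65 to 6.22 and 5.98, and wild type lay with GFP RNAi at 7.95 and 7.58. KFase, the kynurenine formamidase of tryptophan breakdown, fell by 0.92 ± 0.09, from 8.01 and 8.16 to 7.22 and 7.13, with wild type at 8.29 and 8.21. One probe set of alpha-Man-Ia, a mannosidase of glycan trimming, fell by 0.97 ± 0.07, but its brighter probe set stood at -0.18 (adjusted p = 0.732). For St3 the called probe set was the brighter one, and its dimmer probe set, within background in both groups, stood at -0.14 (adjusted p = 0.675).

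Jhbp12, of the juvenile hormone binding protein family, fell by 2.35 ± 0.09, with 7.34 and 7.21 under the GFP hairpin, 4.89 and 4.96 under the lid hairpin and 7.98 and 8.09 in wild type (adjusted p = 0.00550). The odorant-binding protein gene Obp99a rose from 8.88 and 8.91 to 9.78 and 9.77, yet wild type was highest at 11.44 and 11.25. Relative to wild type, Obp99a was therefore lower in LID RNAi by 1.57 and in GFP RNAi by 2.45 (adjusted p = 0.00846 and 0.00350). The new-glue gene ng1 rose from background, 3.20 and 3.02, to 5.36 and 5.41, at least 1.48-fold, with wild type at 2.48 and 2.86.

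Among the other genes with a known product, the caspase gene Strica fell by 0.89 ± 0.08, from 10.18 and 10.07 to 9.19 and 9.28, and wild type stood at 9.82 and 9.90. The gene hng3 fell by 0.98 ± 0.07, rdog by 1.96 ± 0.07 and Reph by 0.87 ± 0.07. For rdog the 3 groups were set apart in steps, with GFP RNAi at 9.0 and 9.08, wild type at 7.98 and 7.99 and LID RNAi at 7.09 and 7.06. Ankrd49, tpr and l(2)34Fc rose by 0.79 ± 0.08, 1.14 ± 0.11 and 2.05 ± 0.15. Wild type lay above LID RNAi for l(2)34Fc (12.27 and 12.44, against 11.76 and 11.56) and below GFP RNAi for tpr (6.76 and 6.89, against 7.44 and 7.57).

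Genes known by number alone made up 13 of the 25 rises and 18 of the 46 falls. CG13526 rose from 4.48 and 4.57, within background, to 9.64 and 8.38, at least 18.3-fold, and wild type read 4.50 and 5.06. CG6434 and CG10384 were within background in GFP RNAi and in wild type and rose at least 3.35-fold and 3.94-fold. CG14692 rose by 2.99 ± 0.19 and CG43103 by 2.38 ± 0.09, and both were lower still in wild type. For CG43103 the steps were even, with 4.94 and 4.92 in wild type, 7.23 and 7.40 with the GFP hairpin and 9.70 and 9.68 with the lid hairpin. CG14879, CG30016, CG10927, CG14397, CG8303, CG43125, CG1344 and CG8768 rose by 0.75 to 1.79.

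Among the falls of such genes, CG31676, CG3860, CG31627, CG31875 and CG10559 stood at -2.07, -2.0, -1.54, -1.55 and -1.37, with wild type nearer LID RNAi in each. CG14314, CG30195, CG18537, CG4860, CG11883 and CG6749 stood at -1.62, -1.60, -1.38, -1.26, -1.09 and -0.84, with wild type above both groups. CG6749 had the tightest replicates of these, with 8.41 and 8.40 under the GFP hairpin, 7.57 and 7.55 under the lid hairpin and 9.16 and 9.07 in wild type. CG14102, CG33469, CG5835, CG17470 and CG14367 stood between -1.39 and -0.73, with wild type nearer GFP RNAi. CG14932 fell at least 2.45-fold into background. For CG4267 the called probe set was within background in both groups, while its brighter one went from 8.18 and 8.10 to 6.39 and 5.55 (difference -2.17, adjusted p = 0.0753).

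Probe sets without a gene name held some of the tightest changes. 1633998_s_at read 8.89 and 8.87 with the GFP hairpin, 11.94 and 11.94 with the lid hairpin and 10.74 and 10.81 in wild type (difference 3.06 ± 0.07, adjusted p = 0.00287). 1635666_at rose by 3.31 ± 0.26 to 12.59 and 12.73. 1628989_at fell at least 25.5-fold, from 9.28 and 9.96 to 5.08 and 4.31, and 1624196_at fell by 2.94 ± 0.22 to 6.03 and 5.41.

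**Figure D3:**
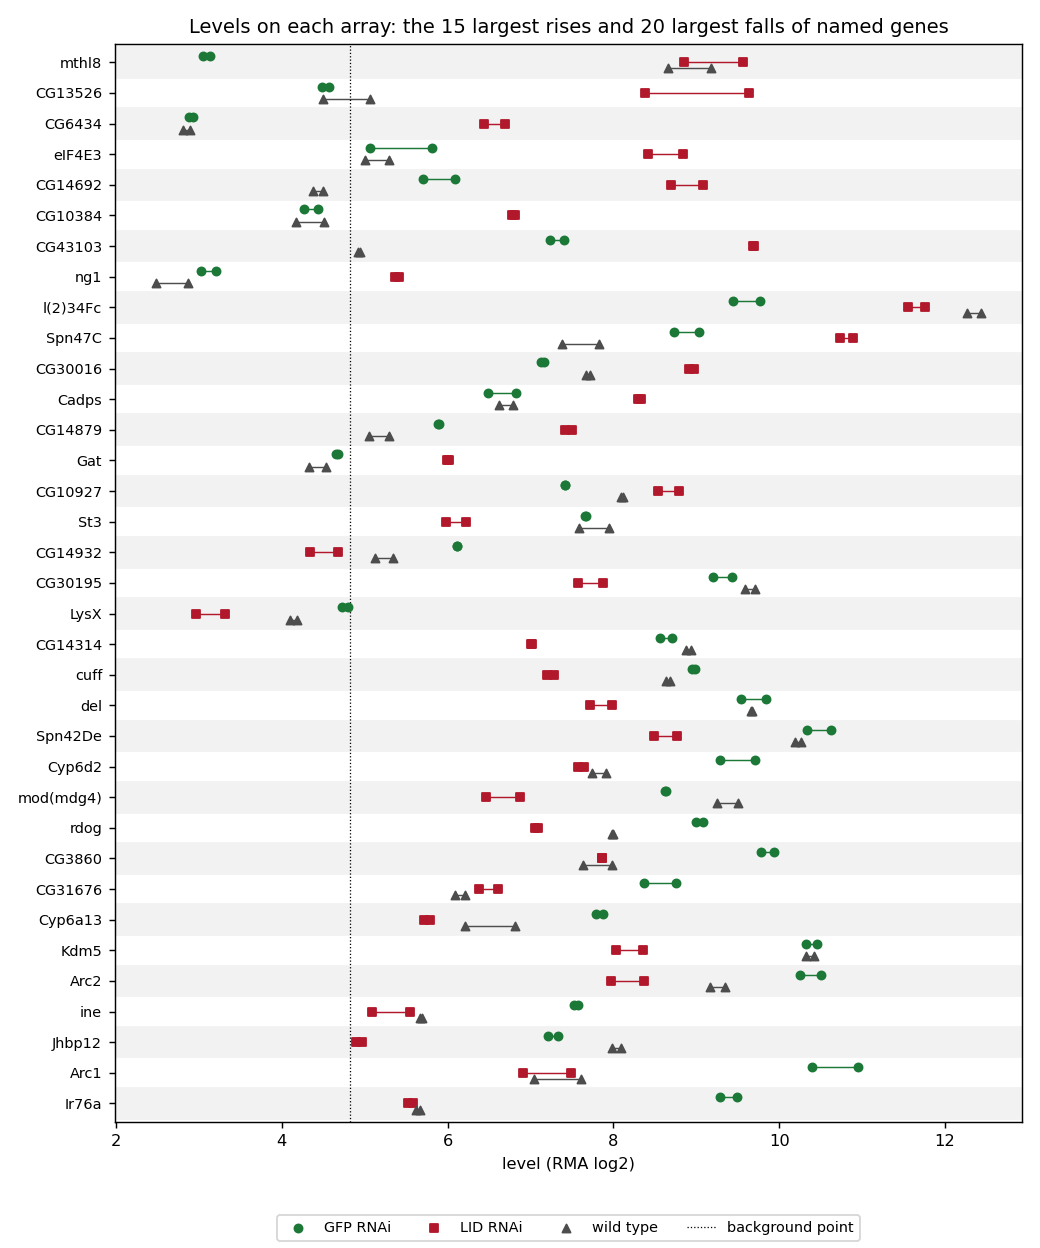
Levels (RMA log2, horizontal) on all 6 arrays for the 15 named genes with the largest called rises and the 20 with the largest called falls, 1 gene per row, with the 2 arrays of a group joined by a line (green circles GFP RNAi, red squares LID RNAi, grey triangles wild type; dotted line, background point). Red and green never overlap in a row, while the grey triangles lie with green in some rows, as for Kdm5, del and cuff, and with red in others, as for mthl8, Ir76a and Arc1.

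Where wild type sits was described for each called probe set as the share of the way from the GFP RNAi mean, at 0, to the LID RNAi mean, at 1. All comparisons draw on the same arrays, so these counts describe the levels and test nothing. Wild type lay between the groups and nearer GFP RNAi for 27 of 88 probe sets, and beyond GFP RNAi, away from LID RNAi, for 32. It lay between and nearer LID RNAi for 19 and beyond LID RNAi for 10. Hence for 59 of the 88 wild type lay nearer GFP RNAi than LID RNAi, and for 29 it lay nearer LID RNAi. In 32 of the 59 GFP RNAi was the middle group, with wild type and LID RNAi at opposite ends.

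Within 0.25 of the GFP RNAi level, wild type was found for 35 of the 88, 11 of them rises and 24 falls. Kdm5 (0.01), del (0.01), wtrw (-0.01), CG6434 (-0.01), CG10384 (-0.01), Cadps (0.03) and Septin5 (0.05) were among those with wild type closest to the control hairpin. Within 0.25 of the LID RNAi level it was found for 15, 3 rises and 12 falls. These included Ir76a (0.98), Arc1 (0.96), both probe sets of mthl8 (0.95 and 0.90), Mov10 (0.93), Cyp6d2 (0.89), ine (0.84) and CG3860 (1.03). Rises for which wild type lay far below GFP RNAi were mthl6 (-1.60), CG43103 (-1.0) and CG14397 (-0.90), and grass (-0.91) and CG6749 (-0.84) were the falls for which it lay farthest above.

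**Figure D4:**
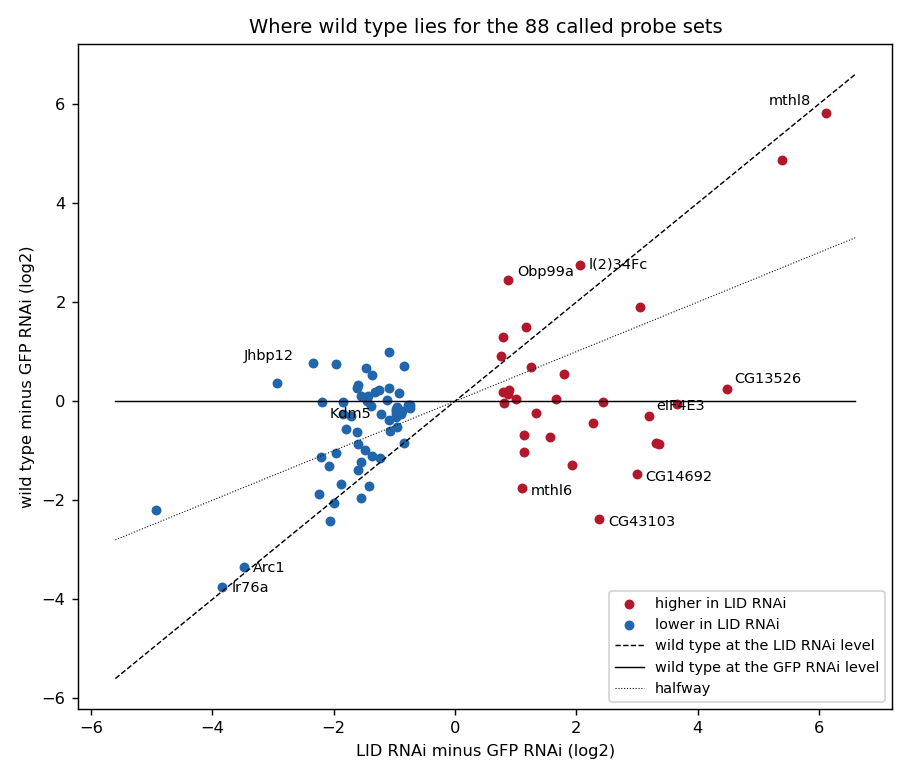
Wild type minus GFP RNAi (log2, vertical) against LID RNAi minus GFP RNAi (log2, horizontal) for the 88 called probe sets, each a point (red rises, blue falls). Points on the solid line have wild type at the GFP RNAi level, as Kdm5, points on the dashed line have it at the LID RNAi level, as mthl8, Ir76a and Arc1, and the dotted line is halfway; both axes use the GFP RNAi mean, so no relation is read from the plot.

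Other probe sets of the called genes gave a mixed picture. Of the 71 genes 8 had more than 1 probe set, and mthl8 was the one that passed with each. Of the 27 further probe sets 17 differed in the called direction and 10 in the other, and all 10 belonged to mod(mdg4). The brighter probe set of CG14692 was the called one, and its dimmer one was within background.

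By chromosome arm, beside 71 of all 11982 measured genes (0.593%), 26 of 2427 measured genes on 2R were called, 14 of 2204 on 2L, which carries Kdm5, 15 of 2973 on 3R, 10 of 2344 on 3L and 3 of 1869 on the X chromosome. The small chromosome 4 held 2 of 65, Cadps and Gat. Of its 65 genes 26 stood above 0, a lower share than the 6120 of all 11982 genes (51.1%). Also on chromosome 4, yellow-h of the yellow family read 8.56 and 8.67 with the lid hairpin, 6.31 and 6.94 with the GFP hairpin and 4.86 and 5.87 in wild type without passing (adjusted p = 0.164). Called genes that were direct neighbours among the measured genes were Arc1 with Arc2 and CG14102 with Ir76a, all of them falls. CG30195 and Cyp6d2, both falls, had 2 measured genes between them. CG14102 read 9.14 and 9.17 under the GFP hairpin, 8.02 and 7.84 under the lid hairpin and 8.90 and 8.89 in wild type, so that wild type lay with the control hairpin there and with the knockdown for Ir76a.

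Gene lists were described by counts and medians of the highest probe set of each gene. Over all measured genes the median difference was 0.00, and at an unadjusted p under 0.05 731 genes were higher (6.10%) and 999 lower (8.34%). Among 20 genes of H3K4 methylation and lid partners Kdm5 alone passed, with a median of -0.01, and the next largest differences were -0.40 ± 0.22 for Hcf and -0.20 ± 0.08 for trx, a methyltransferase of the same lysine (adjusted p = 0.570 and 0.430). Of 9 other lysine demethylases 0 passed, and the largest difference was 0.43 ± 0.08 for JMJD7 (adjusted p = 0.158, 2 of 9 at an unadjusted p under 0.05).

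Of 27 genes in the germline piRNA list del and cuff fell and none rose, with a median of -0.01. At an unadjusted p under 0.05, 6 were lower and 5 higher. The list also counts Bx42 (0.13, limma adjusted p = 0.569), whose place in this pathway was not checked. SoYb read 7.93 and 7.58 with the GFP hairpin and 5.69 and 5.91 with the lid hairpin, and aub, a Piwi protein, 6.40 and 6.47 against 5.29 and 4.18, neither past the threshold (adjusted p = 0.133 and 0.192). The nuclease gene zuc stood at 0.50 and the export factor gene nxf2 at 0.43 (adjusted p = 0.213 and 0.160). Among 9 genes of cap binding eIF4E3 was the one that passed, and the others lay within 0.23 of 0.

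Of 80 cytochromes P450 2 fell and none rose, with a median of -0.05, and at an unadjusted p under 0.05 15 were lower and 5 higher. Cyp4e1 read 6.20 and 6.64 under the GFP hairpin and 4.51 and 4.46 under the lid hairpin, and Cyp4e2 11.05 and 10.94 against 9.78 and 9.08, without passing (adjusted p = 0.112 and 0.102). In the other direction Cyp49a1 read 6.63 and 6.99 against 7.88 and 8.0, also without passing (difference 1.13 ± 0.14, adjusted p = 0.0708). None of 34 glutathione transferases passed in limma (2 higher and 8 lower at an unadjusted p under 0.05), the largest difference being -0.98 ± 0.10 for GstZ1 (adjusted p = 0.0542). None of 35 UDP-glycosyltransferases passed (1 higher and 5 lower), with -0.79 ± 0.09 for Ugt302K1 (adjusted p = 0.0646). Of 14 antioxidant genes 0 passed (1 lower), and Gclc, the catalytic subunit of glutathione synthesis, stood at -0.73 ± 0.11 (adjusted p = 0.101).

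Chemoreceptors were mostly not told from background: 23 of 165 had a mean above the background point, and Ir76a was the one that passed. Of 47 odorant-binding proteins Obp99a was the one that passed, of 15 methuselah-like receptors mthl8 and mthl6 rose, of 27 serpins 1 rose and 1 fell, and of 12 genes of the takeout family Jhbp12 fell. The medians of these lists lay between -0.12 and 0.01. Of 38 trypsin-like proteases grass fell, with a median of 0.01. None of 112 cuticle proteins passed (8 higher and 10 lower at an unadjusted p under 0.05), and Cpr51A read 11.54 and 12.15 with the GFP hairpin and 9.93 and 10.20 with the lid hairpin (adjusted p = 0.0736). None of 88 long noncoding RNAs passed (3 higher and 4 lower), with lncRNA:CR33938 at 12.04 and 12.24 against 11.36 and 11.38 (adjusted p = 0.0708).

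Developmental and stress lists held no gene that passed in limma. Called genes of related roles were not in these lists, among them scaf (JNK target), grass (Toll cascade) and GNBP2 (microbial recognition), given above. Of 14 genes of the Notch pathway and its E(spl) targets 1 was higher and 1 lower at an unadjusted p under 0.05, with a median of -0.06 and Ocho, a Notch antagonist of the Bearded family, at 0.86 ± 0.11 (adjusted p = 0.0795). Of 14 JNK and damage genes 2 were lower, Timp, an inhibitor of matrix proteases, by 0.86 and the phosphatase gene puc by 0.33 (adjusted p = 0.209 and 0.271). In the heat shock list (15 genes, 1 higher and 1 lower) Hsp68 read 10.79 and 12.05 under the GFP hairpin, 9.62 and 8.51 under the lid hairpin and 10.95 and 11.82 in wild type (adjusted p = 0.25). In the immune list (22 genes, 2 lower) Drsl5 read 9.31 and 3.25 in GFP RNAi, so that its control replicates lay far apart. Of 7 peptidoglycan recognition proteins 1 was higher.

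The ecdysone response list (16 genes, 1 lower) also showed a gap between the GFP RNAi arrays. The nuclear receptor genes Hr3 and Hr4 read 10.52 and 10.50 on replicate 1, but 6.51 and 7.75 on replicate 2, against 8.65 to 10.48 in LID RNAi and 10.14 to 11.09 in wild type. Mean levels of the list were 10.43 and 9.79 with the GFP hairpin, 10.22 and 10.12 with the lid hairpin and 10.42 and 10.55 in wild type. The part of this gap in the calls was not tested.

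Mitochondrial ribosomal proteins had a median of 0.08, with 58 of 69 genes above 0 (8 higher at an unadjusted p under 0.05), and wild type exceeded GFP RNAi by the same median of 0.08. The oxidative phosphorylation list, with 54 of 73 genes above 0, had a median of 0.06 (1 higher and 2 lower). Cytosolic ribosomal proteins had a median of -0.02 (8 of 34 above 0), and the paralogue RpS19b stood apart at 7.89 and 7.29 under the GFP hairpin and 9.17 and 9.15 under the lid hairpin (adjusted p = 0.0795). None of these 3 lists had a gene past the threshold in limma.

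**Figure D5:**
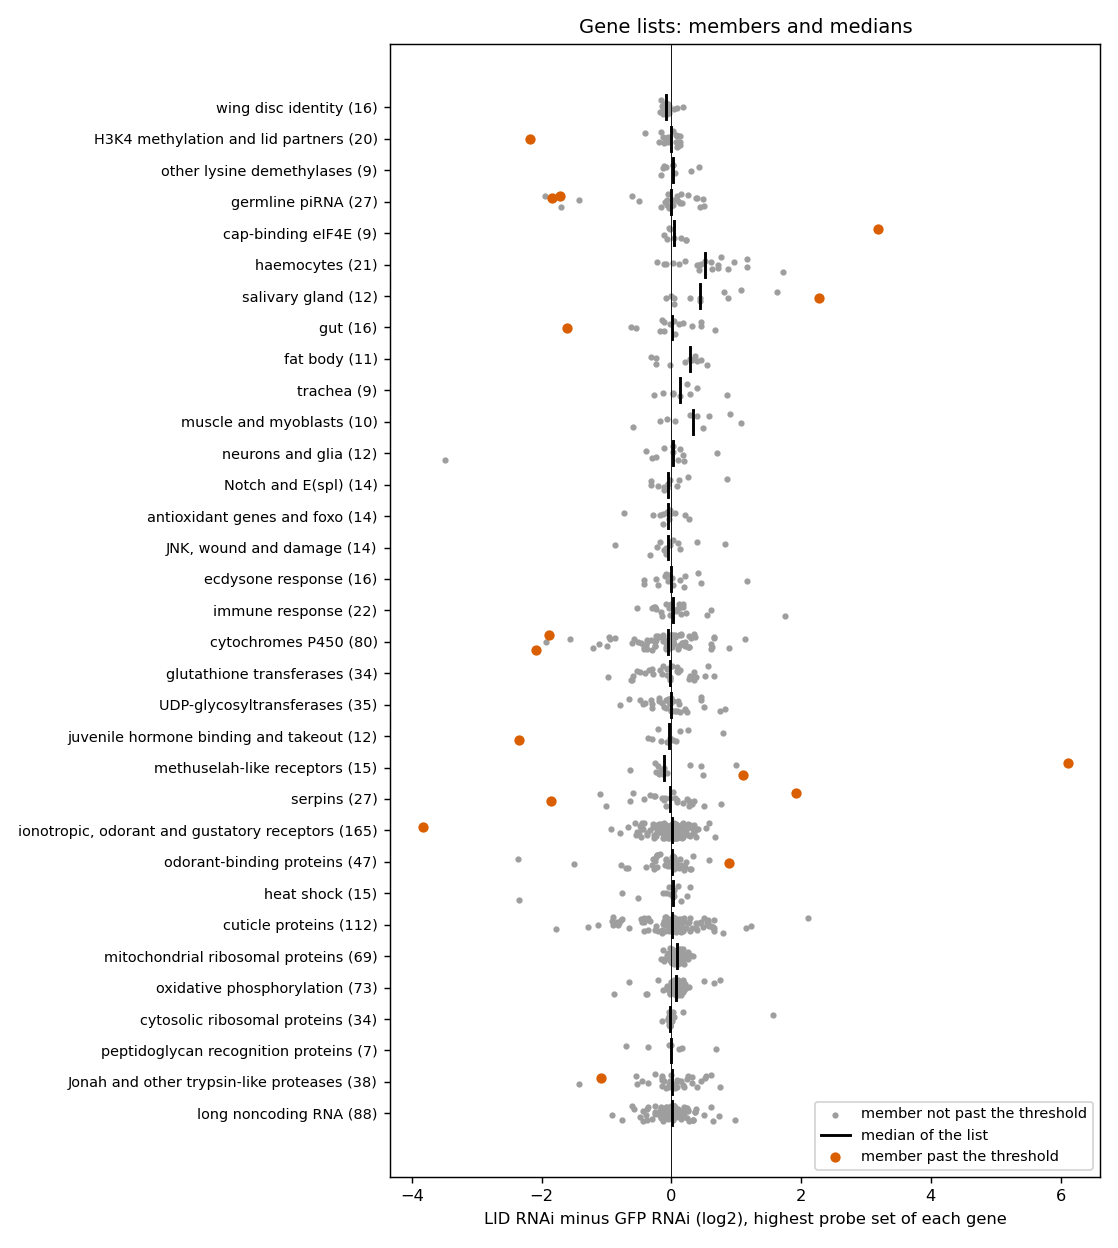
Difference between LID RNAi and GFP RNAi (log2, horizontal) of each measured gene in 33 lists, with the number of genes in brackets; grey points did not pass, orange points passed, and black bars are medians. Most medians lie within 0.15 of 0. Those of haemocytes (0.52), salivary gland (0.45), muscle and myoblasts (0.34) and fat body (0.28) lie farther up. In some lists grey points lie farther from 0 than an orange one, as SPE (-1.43) beside grass (-1.08).

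Markers of other cell types were described in the same way. Of 21 haemocyte markers 18 stood above 0 with a median of 0.52, and 0 passed in limma (4 higher and 1 lower at an unadjusted p under 0.05). Mean levels of this list were 8.49 and 8.78 with the GFP hairpin, 9.30 and 9.08 with the lid hairpin and 8.83 and 8.29 in wild type. Hml, of plasmatocytes, read 9.90 and 10.44, 10.82 and 10.96, and 10.35 and 9.47, and PPO2, a prophenoloxidase of crystal cells, 10.83 and 10.94, 12.33 and 11.78, and 10.23 and 8.62. The crystal cell regulator lz was within background under the control hairpin (3.54 and 4.25) and in wild type (3.55 and 3.28) and read 5.47 and 5.75 in LID RNAi (adjusted p = 0.111), while gcm was within background on all arrays.

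Salivary gland markers (12 genes) had a median of 0.45, and ng1 passed. Mean levels were 7.45 and 6.87 under the GFP hairpin, 7.38 and 8.25 under the lid hairpin and 7.18 and 7.29 in wild type, so that LID RNAi replicate 2 stood above all others. Muscle and myoblast markers (10 genes) had a median of 0.34 with mean levels of 9.14 and 8.94, 9.46 and 9.20, and 8.92 and 9.02 (0 passed in limma, 4 higher and 1 lower at an unadjusted p under 0.05). Fat body markers (11 genes) had a median of 0.28, and their mean levels overlapped, at 9.16 and 9.05, 9.54 and 9.0, and 9.63 and 9.05 (0 passed, 0 at an unadjusted p under 0.05). Gut markers (16 genes) had a median of 0.00 and mean levels of 5.22 and 5.63, 5.81 and 4.91, and 6.09 and 5.45, and LysX passed. Trachea markers (9 genes) had a median of 0.13 (0 passed, 2 higher at an unadjusted p under 0.05). Markers of neurons and glia (12 genes) had a median of 0.02 (0 passed, 3 lower), among them Snap25, of synaptic vesicle fusion, at 8.06 and 8.86 with the GFP hairpin, 5.65 and 4.29 with the lid hairpin and 6.41 and 7.02 in wild type (adjusted p = 0.111). The part of these cell types in the called differences was not tested.

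Differences that were large but did not pass were named by rule. At an unadjusted p under 0.01 and with arrays that did not overlap, 218 further genes were higher and 382 lower. After Snap25 the lowest were CG32055 (-2.81), Tdc1 (-2.20), CG13258 (-2.12), Acp62F (-2.10), SoYb (-1.96), Cyp4e1 (-1.93), CG11263 (-1.85), CG5535 (-1.82) and CG14695 (-1.78). Tdc1, a tyrosine decarboxylase that makes tyramine, read 9.72 and 10.22 under the GFP hairpin, 7.60 and 7.94 under the lid hairpin and 6.88 and 6.44 in wild type (adjusted p = 0.0646). The highest were CG34296 (2.52), CG30098 (2.37), yellow-h (1.99), CG2082 (1.82), lz (1.72), CG31431 (1.65), Sgs1 (1.63), CG8012 (1.59), RpS19b (1.57) and Acsf2 (1.55). CG34296 read 8.02 and 7.34 with the GFP hairpin, 10.28 and 10.12 with the lid hairpin and 9.72 and 9.09 in wild type (adjusted p = 0.0699). Adjusted p-values of these 20 genes ran from 0.0510 to 0.213.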

How the data were processed

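Wing disc RNA of 6 samples was hybridised to single-colour arrays after amplification of 25 ng of total RNA, per the labels' protocols. Values in the deposited table are log2 levels, which, per the submitters' processing notes, the authors computed by RMA (no version given). These values were used without further scaling. Of 18952 probe sets 183 are controls. Of the 18769 tested, 13647 had 1 gene symbol (11982 genes), 402 several and 4720 none in the platform annotation. Symbols were updated, for 13550 of the 13647, through the RefSeq gene table of Release 6 plus ISO1 MT, which also gave the order of genes.

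Groups follow the titles. All 6 arrays entered 1 fit of group means in limma 3.58.1 under R 4.3.3 (3 residual and 1.77 prior degrees of freedom), two-sided, with Benjamini-Hochberg adjustment over 18769 probe sets and a threshold of 0.05. Errors are standard errors of this fit, with n = 2 arrays per group. The labels do not say whether replicates were dissected separately, so p-values measure the spread between these arrays, which may be technical, and the number of arrays limits the precision. A gene was represented by its probe set with the highest mean, and a gene counts as called if any probe set passed. The background point is the 95% point of 27 Bacillus subtilis control probe sets, and where the lower group lies below it a fold is given as "at least", with that group's arrays raised to the point. Genes named were Kdm5, the called genes, up to 10 per direction at an unadjusted p under 0.01 without overlap, and up to 3 per list, and Cyp4e2, Cyp49a1 and a few list members beyond these were chosen after their values were seen. Members, lists and tests were chosen with earlier results of these data known. The fit was tested on simulated data with independent noise on each array. That setting has no deviations shared between arrays, so it checks the code and not these calls. Promoter letters were not searched here.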

Additional observations from a re-analysis of the deposited data

Results flagged for a closer look

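A control probe set outside the comparison, AFFX-Dm-K01486-1_at, read high in both hairpin groups and within background in wild type. Its levels were 11.91 and 11.85 with the GFP hairpin, 11.87 and 11.3 with the lid hairpin and 3.07 and 2.96 in wild type. It therefore separates the 4 RNAi arrays from the wild type arrays, for which a field of the labels also names the driver. Whether the wild type larvae carried the driver was not tested, so wild type may differ from the hairpin groups in more than the hairpin. Each wild type position given above would carry such a difference too. Groups of 2 arrays are too small for a check of single outlying samples.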

How the results depend on the processing

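With the LID RNAi and GFP RNAi arrays alone in the fit, 2 probe sets rose and 1 fell (1633998_s_at, Ir76a and 1633386_s_at of mthl8). The other probe set of mthl8, 1629362_at, with the larger rise, did not pass there. In that fit Kdm5 stood at -2.19 with an adjusted p of 0.131. With the replicate block, 8 rose and 4 fell, all 12 among the 88, and Kdm5 stood at -2.19 (adjusted p = 0.0820). Deviations of same-numbered arrays correlated at 0.30 for LID RNAi and GFP RNAi, at 0.22 for LID RNAi and wild type and at 0.06 for GFP RNAi and wild type, and the labels do not say what a number marks. With an intensity trend in the variance prior 109 rose and 138 fell, 85 of the 88 included, and with probe sets limited to those above background 62 rose and 127 fell, 84 of the 88 included, so the size of the called set depends on this setting. Leaving out 1 array in turn gave 0 to 3 rises and 0 to 3 falls, and Kdm5 between -2.35 and -2.02 with adjusted p from 0.0573 to 0.220. The lone array of a group was then assumed to vary like the others. The robust prior (26 and 46), renewed quantile normalization (34 and 55) and median centring (36 and 57) gave similar counts. The 88 kept their sign under each of these alternatives in which they were tested, but for most of them this was fixed in advance. The block, the priors, the background limit and the fit without wild type leave the differences as they are. With arrays that do not overlap, leaving out 1 array cannot turn a sign. Wild type positions were 30, 29, 19 and 10 after median centring, in place of 32, 27, 19 and 10. Differences near the background point of 4.82 are limited by signal over background.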
